A study of Mus musculus with 6 samples.

Results

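Cell cycle, DNA replication and mitosis genes were followed in the livers of Nogo-/- mice and of their wild-type littermates. The set holds 42 genes, chosen by name: cyclins and their kinases, inhibitors of those kinases, E2F and RB genes, replication and nucleotide-supply genes, mitosis genes and the p53 circuit. Each name matched 1 of the 54232 rows of the deposited table of raw counts per gene. The knockout libraries are called Nogo-/- 1, 2 and 4 and the wild-type libraries 2, 4 and 11, after the numbers in their labels. All 6 came from livers of mice aged 8 weeks on normal chow, 3 libraries for each genotype. The labels name no other agent or allele, and give neither strain nor sex nor the deleted stretch of the gene. They also do not say that each library came from its own animal, so the p-values below weigh only the spread among these 6 libraries, which may be technical.

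Most hepatocytes of an adult liver rest outside the cell cycle and can return to it when tissue is lost. Growth signals raise the D-type cyclins, whose kinases CDK4 and CDK6 phosphorylate RB and so free E2F transcription factors. E2F switches on the genes of DNA replication, and a later wave of genes, read from promoters that carry a short element called CHR, drives mitosis. The tumour suppressor p53 opposes this through the kinase inhibitor Cdkn1a, while its ligase Mdm2 keeps p53 low. In a piece of liver, fewer cells of a type and less RNA per cell cannot be told apart, and dividing blood cells add to the same genes.

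The libraries held 17654412 to 18118811 counts in knockout and 17568223 to 20902369 counts in wild type. Levels are in CPM, counts scaled to library depth, after TMM scaling. A count of 3 in a library, taken as the limit that a count of 0 allows, corresponded to 0.139 to 0.199 CPM and covers counting error only. Rtn4, the gene of Nogo, lay at 4.63 to 8.22 CPM in knockout and at 40.5 to 56.0 CPM in wild type, lower in every knockout library (log2 fold change −3.08 ± 0.26, SE, edgeR adjusted p = 0.00101). Exons of a gene on the other strand cover 18.4% of the exonic bases of Rtn4, and the labels do not give the use of strand. The 10 hepatocyte markers together held 82082 to 117978 CPM in knockout and 95895 to 112152 CPM in wild type. Mitochondrially encoded genes took 28.6%, 19.7% and 11.8% of the counts in Nogo-/- 1, 2 and 4 and 6.17% to 6.90% in wild type. This share moves with genotype and with several results below.

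Few of the cell cycle genes passed the test for a difference between the genotypes, and an uncalled gene is not shown to be unchanged. Of the 42 members, 38 passed the filter on low counts and were tested. In knockout liver 1 of them rose, the transcription factor gene E2f3. Another 2 fell, the G1 cyclin gene Ccnd1 and the replication clamp gene Pcna. The call rule was edgeR's quasi-likelihood test with a threshold of 0.05 on the p adjusted by Benjamini-Hochberg over all 13304 tested genes. Over all tested genes 17.0% were called, against 7.89% of the tested members. The 2 shares are not matched for level, and 9 of the 42 members lay under 1 CPM in the wild-type mean. By direction, 8.76% of all tested genes rose and 8.29% fell. At an unadjusted p under 0.05 there were 9 of 38 members, against 34.0% of all tested genes. The 3 levels of one genotype did not overlap those of the other in 6 of the 38 members, against 38.9% of all tested genes. Of these, 2 members were higher in knockout, against 19.7% of all tested genes, and 4 were lower, against 19.2%. The median log2 fold change, knockout over wild type, was 0.14 over the 38 members and 0.01 over all tested genes. With no TMM scaling these medians were −0.05 and −0.16, so the members' median took the opposite sign while staying above that of all genes.

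**Figure D1:**
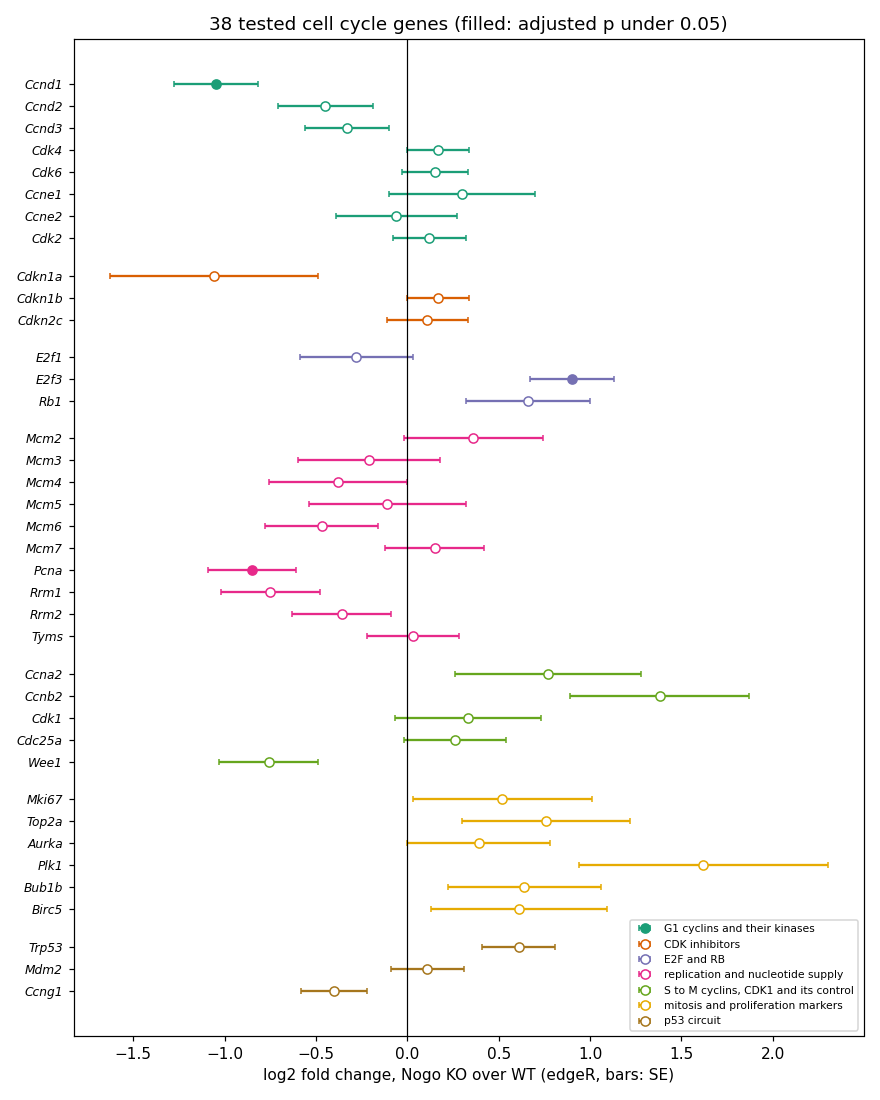
Log2 fold change of each of the 38 tested members, Nogo-/- over wild type, with its standard error from edgeR as a bar, grouped by role. Filled points mark the 3 called genes, E2f3 at 0.90, Pcna at −0.85 and Ccnd1 at −1.05, and open points the other 35.

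Ccnd1 encodes cyclin D1, the D-type cyclin through which growth signals and beta-catenin act in hepatocytes. The gene spans 144929931 to 144939925 of chromosome 7, minus strand, in mm10. Its level was 3.71, 4.78 and 5.60 CPM in Nogo-/- 1, 2 and 4, against 8.69, 9.44 and 11.1 CPM in wild type 2, 4 and 11. Every knockout library lay below every wild-type library. The means were 4.69 ± 0.95 CPM in knockout and 9.73 ± 1.21 CPM in wild type (SD, n = 3 each). The log2 fold change was −1.05 ± 0.23 (SE, edgeR adjusted p = 0.016). Of the fits that left out 1 library, the call was lost without Nogo-/- 1 (adjusted p = 0.053) and without wild type 4 (adjusted p = 0.055). Exons of a gene on the other strand cover 23.4% of the exonic bases of Ccnd1, and since the labels do not say whether counting used strand, its reads cannot be told apart from that gene's.

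Pcna encodes the sliding clamp that holds DNA polymerases on the template, and also serves DNA repair. The gene spans 132249162 to 132253314 of chromosome 2, minus strand. The knockout libraries 1, 2 and 4 held 13.5, 18.7 and 27.8 CPM, and the wild-type libraries 34.2, 38.8 and 35.5 CPM. The groups did not overlap, and the knockout library nearest to wild type was Nogo-/- 4. The means were 20 ± 7.23 CPM in knockout and 36.1 ± 2.36 CPM in wild type (SD, n = 3 each). The log2 fold change was −0.85 ± 0.24 (SE, edgeR adjusted p = 0.0382). Other genes, most of all a processed pseudogene, share 19.1% of its 50-base words. The handling of multiply matching reads is not given, so how uncertain this makes its count is not known. The order of the 3 knockout libraries for Pcna, as for Ccnd1, was the reverse of their order for the mitochondrial share. With that share as a covariate the log2 fold change of Pcna was −0.08 (edgeR adjusted p = 0.95). The share was higher in every knockout library than in wild type, and that fit called 0 of all tested genes. It therefore cannot tell the share apart from genotype.

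E2f3 encodes an E2F transcription factor that binds RB and activates replication genes. The gene spans 29906575 to 29986063 of chromosome 13, minus strand. Its level was 9.60, 10.3 and 7.04 CPM in Nogo-/- 1, 2 and 4 and 4.56, 5.33 and 4.51 CPM in wild type 2, 4 and 11. All 3 knockout libraries were higher than all 3 wild-type libraries, Nogo-/- 4 by the least. The means were 8.97 ± 1.70 CPM in knockout and 4.80 ± 0.46 CPM in wild type (SD, n = 3 each). The log2 fold change was 0.90 ± 0.23 (SE, edgeR adjusted p = 0.0255). No other gene shares its 50-base words. With library totals in place of TMM the call was lost (0.73, adjusted p = 0.0737).

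The calls of Pcna and E2f3 were lost in most fits that left out 1 library, whichever genotype it came from. Each passed in 1 of the 6 fits that left out 1 library, the one without Nogo-/- 4, with log2 fold changes of −1.17 for Pcna and 1.04 for E2f3. In the fits without Nogo-/- 1, Nogo-/- 2, wild type 2, wild type 4 or wild type 11, the edgeR adjusted p was 0.0731 to 0.115 for Pcna and 0.0637 to 0.103 for E2f3. Calls over all tested genes also fell in those fits, to 4.57% to 12.3%, against 17.0% with all 6 libraries. The log2 fold changes over the 6 fits ran from −1.17 to −0.64 for Pcna and from 0.79 to 1.04 for E2f3. With Nogo-/- 4 alone against wild type, Ccnd1, Pcna and E2f3 had log2 fold changes of −0.80, −0.38 and 0.55, and with the mitochondrial share as a covariate Ccnd1 and E2f3 had −0.60 and 0.56. None of these passed (edgeR adjusted p = 0.187, 0.342, 0.314, 0.648 and 0.661 in that order).

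The number of called members moved with the libraries used, as did that of all genes. Without Nogo-/- 4, 7 of 40 tested members passed, against 29.4% of all tested genes. Without Nogo-/- 1 it was 0 of 39 (6 at an unadjusted p under 0.05), against 5.90%, and without wild type 4 it was 0 of 39 (6 unadjusted), against 4.57%. Ccnd1 alone passed without Nogo-/- 2, where 7.20% of all genes did, and without wild type 2, where 6.03% did. Without wild type 11, Plk1 rose and Ccnd1 and Wee1 fell, against 12.3% of all genes.

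**Figure D2:**
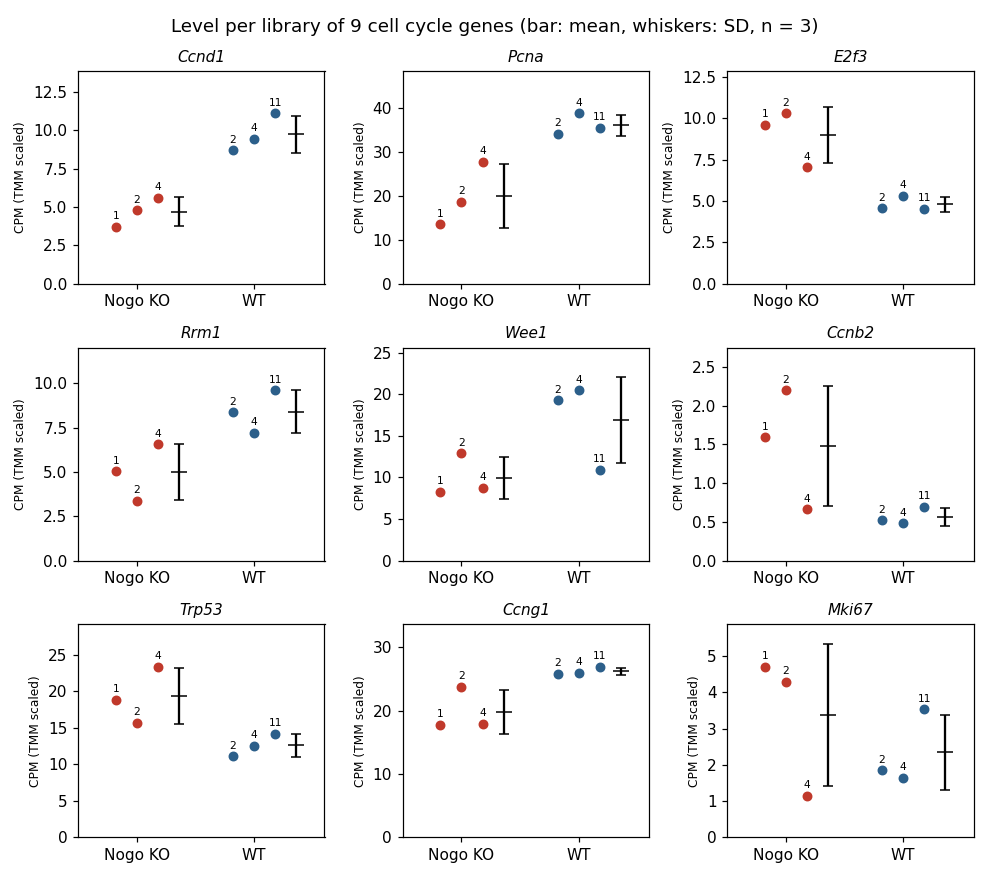
Level in CPM after TMM scaling in each library for 9 members, with Nogo-/- at the left and wild type at the right of each panel, the library number above each point, and the mean with its SD beside the points. Ccnd1, Pcna and E2f3 were called, and the knockout and wild-type points do not overlap in Ccnd1, Pcna, E2f3, Rrm1, Trp53 and Ccng1.

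The promoter windows of 4 members are shown: called genes with and without the words searched (E2f3 and Pcna), a helicase gene with several E2F words (Mcm6) and a mitotic cyclin gene with CHR elements (Ccnb2). RefSeq windows (build GRCm38.p6) run from 250 bases before to 50 bases after an annotated start, and 34 of the 42 members had one. The called gene Ccnd1 had none and was not searched, nor were Ccnd2, Ccne2, Ccna2, Rb1, Mcm4, Wee1 and Aurkb. An E2F word was searched on both strands as TTTCCCGC, TTTCGCGC, TTTGCCGC or TTTGGCGC, and the CHR element as TTTGAA. The E2f3 window is chr13:29986014-29986313 on the minus strand, that of Pcna chr2:132253131-132253430, that of Mcm6 chr1:128359656-128359955 and that of Ccnb2 chr9:70421505-70421804, all on the minus strand and written 5′ to 3′ along the gene. Capitals mark E2F words and CHR elements on either strand.
E2f3: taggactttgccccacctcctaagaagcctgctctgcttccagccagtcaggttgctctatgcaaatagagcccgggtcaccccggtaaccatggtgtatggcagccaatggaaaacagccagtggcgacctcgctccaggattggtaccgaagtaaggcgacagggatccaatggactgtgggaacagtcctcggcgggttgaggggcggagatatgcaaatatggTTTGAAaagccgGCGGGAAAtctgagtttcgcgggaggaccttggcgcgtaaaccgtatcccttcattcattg
Pcna: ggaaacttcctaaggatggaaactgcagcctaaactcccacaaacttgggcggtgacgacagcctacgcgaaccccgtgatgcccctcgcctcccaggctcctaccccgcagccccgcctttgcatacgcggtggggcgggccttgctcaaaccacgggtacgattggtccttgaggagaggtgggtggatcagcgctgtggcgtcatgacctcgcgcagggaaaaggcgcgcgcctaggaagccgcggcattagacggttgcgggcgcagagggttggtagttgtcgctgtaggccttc
Mcm6: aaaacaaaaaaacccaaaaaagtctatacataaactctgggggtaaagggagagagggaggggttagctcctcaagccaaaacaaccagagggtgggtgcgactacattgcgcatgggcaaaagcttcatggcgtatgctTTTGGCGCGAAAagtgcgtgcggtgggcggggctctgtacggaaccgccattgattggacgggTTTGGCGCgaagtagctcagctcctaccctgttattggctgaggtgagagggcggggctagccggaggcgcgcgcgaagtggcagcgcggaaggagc
Ccnb2: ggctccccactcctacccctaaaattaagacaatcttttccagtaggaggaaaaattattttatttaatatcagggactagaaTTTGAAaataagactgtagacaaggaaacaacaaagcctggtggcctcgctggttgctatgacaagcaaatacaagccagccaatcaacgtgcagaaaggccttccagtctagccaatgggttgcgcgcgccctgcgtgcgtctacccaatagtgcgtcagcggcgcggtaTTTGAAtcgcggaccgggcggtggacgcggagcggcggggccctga

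The E2f3 window shown held 1 E2F word and 1 CHR element, while another annotated E2f3 window, chr13:29984342-29984641, held neither. The Mcm6 window held 3 E2F words, of which 1 pair on opposite strands overlapped. Ccnb2 had 2 CHR elements and no E2F word. The Pcna window held neither word. Of the 34 members with a window, 8 had an E2F word (Cdk1, Cdk2, Cdc25a, E2f3, Mcm3, Mcm5, Mcm6 and Mcm7), against 2.26% of all 32851 windows and 2.60% of all 27025 genes with a window. The CHR element was present in 10 of the 34, against 17.9% of all windows and 20.2% of all genes. Of the 8 mitosis genes with a window, 6 held CHR and 0 held an E2F word, and of the 9 replication genes 4 held an E2F word and 1 held CHR. A match is a description of letters in the window and does not show that a factor was bound.

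The other G1 genes did not pass the test. Ccnd3, the most abundant D cyclin here per length, held 14.6, 17.8 and 26.5 CPM in Nogo-/- 1, 2 and 4 and 22.6, 24.9 and 26.8 CPM in wild type (log2 fold change −0.33 ± 0.23, SE). Its overlap with wild type came from Nogo-/- 4, without which it passed at −0.62 (edgeR adjusted p = 0.0283), as did 29.4% of all tested genes. With all libraries Ccnd3 did not pass with DESeq2 (adjusted p = 0.379) or limma-voom (adjusted p = 0.26). Ccnd2 held 4.83, 3.54 and 3.73 CPM in knockout and 5.08, 4.69 and 6.78 CPM in wild type, with 1 knockout library inside the wild-type range. The kinase genes that these cyclins serve did not pass: Cdk4 averaged 29.7 ± 3.80 CPM in knockout and 26.5 ± 0.69 CPM in wild type, and Cdk6 averaged 20.8 ± 2.16 CPM in knockout and 18.7 ± 2.51 CPM in wild type (SD, n = 3 each). Exons of a gene on the other strand cover 19.7% of those of Cdk4. For Cdk2 and its partners Ccne1 and Ccne2, which act at the entry into S phase, the log2 fold changes were 0.12 ± 0.20, 0.30 ± 0.40 and −0.06 ± 0.33 (SE), with adjusted p of 0.70 to 0.913. The log2 fold changes of Cdk4, Cdk6 and Cdk2 were 0.17, 0.15 and 0.12 with TMM and −0.00071, −0.03 and −0.05 without TMM scaling, so their sign is not settled.

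The kinase inhibitor genes, Rb1 and E2f1 did not pass. Cdkn1b, which encodes p27, the inhibitor of resting cells, averaged 28.6 ± 3.30 CPM in knockout and 25.5 ± 2.37 CPM in wild type (SD, n = 3 each). Cdkn1a, which encodes p21 and is induced by p53, was scarce at 0.397, 1.13 and 0.662 CPM in Nogo-/- 1, 2 and 4 and 1.47, 0.587 and 2.55 CPM in wild type 2, 4 and 11. Its spread within wild type was wider than the gap between the means (log2 fold change −1.06 ± 0.57, SE). Cdkn2c, an inhibitor of CDK4 and CDK6, was at 6.42 to 8.59 CPM in knockout and 5.87 to 7.48 CPM in wild type. Rb1 held 6.09, 11.7 and 4.57 CPM in knockout and 5.79, 4.48 and 3.90 CPM in wild type, the mean of knockout being set by Nogo-/- 2: without it the log2 fold change was 0.17, against 0.66 with it. E2f1, another activator E2F, was at 1.68 to 2.74 CPM in knockout and 2.42 to 2.88 CPM in wild type. By edgeR 0 of the 3 inhibitor genes passed, 0 at an unadjusted p under 0.05, and 0 with DESeq2 or limma-voom. With 17.0% of all tested genes called by edgeR and 34.0% at an unadjusted p under 0.05, 3 genes are too few for a comparison.

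Apart from Pcna, none of the 10 members with roles in replication and nucleotide supply passed. The MCM genes Mcm2 to Mcm7 encode the subunits of the helicase that opens DNA. By edgeR 0 of these 6 passed, 0 at an unadjusted p under 0.05, and 0 with DESeq2 or limma-voom. Over all tested genes 17.0% passed by edgeR and 34.0% had an unadjusted p under 0.05, and 6 genes are too few to set against those shares. Their summed level was 22.7, 19.5 and 18.4 CPM in Nogo-/- 1, 2 and 4 and 16.1, 20.2 and 25.4 CPM in wild type 2, 4 and 11. The highest and the lowest of the 6 sums were both wild-type libraries, and wild type 11 was the highest wild type in 5 of the 6 genes. Log2 fold changes ran from −0.47 ± 0.31 (Mcm6) to 0.36 ± 0.38 (Mcm2), SE. Mcm7 was the most abundant of the family at 13.6, 6.93 and 8.66 CPM in knockout and 7.27, 9.60 and 9.43 CPM in wild type, and 23.3% of its words are shared with other genes, most of all a processed pseudogene.

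Of the 3 members that supply DNA building blocks, Rrm1 came nearest to the threshold. Rrm1, the large subunit of ribonucleotide reductase, held 5.03, 3.38 and 6.56 CPM in Nogo-/- 1, 2 and 4 and 8.36, 7.20 and 9.61 CPM in wild type. The groups did not overlap, yet the change of −0.75 ± 0.27 on the log2 scale (SE) missed the threshold (edgeR adjusted p = 0.0788). It passed without Nogo-/- 4 (−1.02, adjusted p = 0.019), with no TMM scaling (−0.94, adjusted p = 0.0348) and with no filter on low counts (−0.80, adjusted p = 0.0265). Over all tested genes 29.4%, 17.0% and 13.9% passed in those fits, in that order. With DESeq2 (adjusted p = 0.0604) and limma-voom (adjusted p = 0.0619) Rrm1 missed the threshold. Rrm2, the small subunit, overlapped with 3.91 to 6.26 CPM in knockout and 4.91 to 8.31 CPM in wild type. Tyms, thymidylate synthase, averaged 5.93 ± 1.30 CPM in knockout and 5.81 ± 0.97 CPM in wild type (SD, n = 3 each).

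Genes of the late cell cycle were mostly high in Nogo-/- 1, Nogo-/- 2 and wild type 11 and low in the other libraries. Mki67, which encodes the proliferation marker Ki-67, held 4.70, 4.30 and 1.14 CPM in Nogo-/- 1, 2 and 4 and 1.85, 1.65 and 3.53 CPM in wild type 2, 4 and 11. Nogo-/- 4 was thus the lowest of all 6 libraries for the gene and Nogo-/- 1 the highest. Top2a, the topoisomerase that untangles chromosomes, followed with 2.45, 4.19 and 1.08 CPM in knockout and 1.38, 1.33 and 1.86 CPM in wild type. Ccnb2, a mitotic B cyclin, held 1.59, 2.20 and 0.662 CPM in knockout and 0.522, 0.480 and 0.697 CPM in wild type. For Ccnb2 the overlap came from Nogo-/- 4 and wild type 11 alone (log2 fold change 1.38 ± 0.49, SE, edgeR adjusted p = 0.0757).

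By edgeR 0 of the 9 tested genes among the mitosis markers, cyclins A and B and Cdk1 passed, 2 had an unadjusted p under 0.05 (Ccnb2 and Plk1), and 0 passed with DESeq2 or limma-voom. The edgeR shares over all tested genes were 17.0% called and 34.0% at an unadjusted p under 0.05. Of these 9, 4 reached the filter's cutoff in all 3 knockout libraries but in fewer than 3 wild-type libraries. Among the 5 that reached its cutoff in all 6 libraries, Nogo-/- 2 had the highest level in 4 and Nogo-/- 1 in the other, Nogo-/- 4 was the lowest knockout library in 4, and wild type 11 was the highest wild type in 5. Aurka, a spindle kinase, had 2.65, 4.46 and 2.29 CPM in knockout and 1.80, 1.76 and 3.62 CPM in wild type, and Cdk1, the kinase that starts mitosis, 1.32, 2.79 and 1.68 CPM in knockout and 1.04, 1.49 and 2.09 CPM in wild type. The genotypes overlapped in both. Ccna2, Bub1b and Birc5 had log2 fold changes of 0.77 ± 0.51, 0.64 ± 0.42 and 0.61 ± 0.48 (SE), with edgeR adjusted p of 0.311 to 0.404. Without Nogo-/- 4, Ccnb2 (1.72, adjusted p = 0.0141) and Top2a (1.11, adjusted p = 0.0447) passed. With Nogo-/- 4 alone against wild type, the log2 fold changes were 0.22 for Ccnb2, −0.49 for Top2a and −1.03 for Mki67, and none passed. Plk1, a mitotic kinase counted at 17, 16 and 10 reads in knockout and 1, 3 and 13 in wild type, passed without wild type 11 (2.99, adjusted p = 0.038).

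Depth limits this group. Ccna2, Ccnb2, Plk1 and Bub1b reached the filter's cutoff of 0.558 CPM in all 3 knockout libraries but in fewer than 3 wild-type libraries. Knockout thus helped them into the test, and their direction is not read as support. Cdkn1a reached the cutoff in all 3 wild-type libraries but in fewer than 3 knockout libraries, and is treated in the same way. The 4 members not tested were Ccnb1, Aurkb, Bub1 and Cdc20, encoding a B cyclin, a chromosome kinase, a checkpoint kinase and the activator of the anaphase complex. Their raw counts were 4, 5 and 0 in knockout and 1, 0 and 5 in wild type for Ccnb1, and 2, 10 and 2 in knockout and 7, 12 and 8 in wild type for Aurkb. Bub1 had 3, 3 and 2 counts in knockout and 4, 3 and 4 in wild type, and Cdc20 had 12, 13 and 4 in knockout and 6, 9 and 11 in wild type. A difference in these 4 was not detectable at this depth.

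The summed level of B, T and NK cell markers was also highest in Nogo-/- 2 and Nogo-/- 1. The 13 mitosis genes with cyclins A and B and Cdk1 summed to 19.0, 25.1 and 10.5 CPM in Nogo-/- 1, 2 and 4 and 9.59, 9.81 and 16.9 CPM in wild type 2, 4 and 11. The 23 markers of B, T and NK cells summed to 78.2, 101 and 44.7 CPM in Nogo-/- 1, 2 and 4 and 20, 23 and 30.2 CPM in wild type 2, 4 and 11. Of these markers 16 were tested, 10 rose, against 8.76% of all tested genes, and 0 fell, against 8.29%. None of the 23 was at 0 in all libraries. The filter cutoff was reached in all 6 libraries by 8 of them, of which 5 rose, while the other 5 that rose did not reach it in every wild-type library. In both sums Nogo-/- 2 was the highest and wild type 2 the lowest, but Nogo-/- 4 lay above wild type 11 for the lymphocyte markers and below it for the mitosis genes. Erythroid markers had another order, at 865, 382 and 483 CPM in Nogo-/- 1, 2 and 4 and 320, 361 and 556 CPM in wild type 2, 4 and 11. The part of these cells in the mitosis gene levels was not tested.

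**Figure D3:**
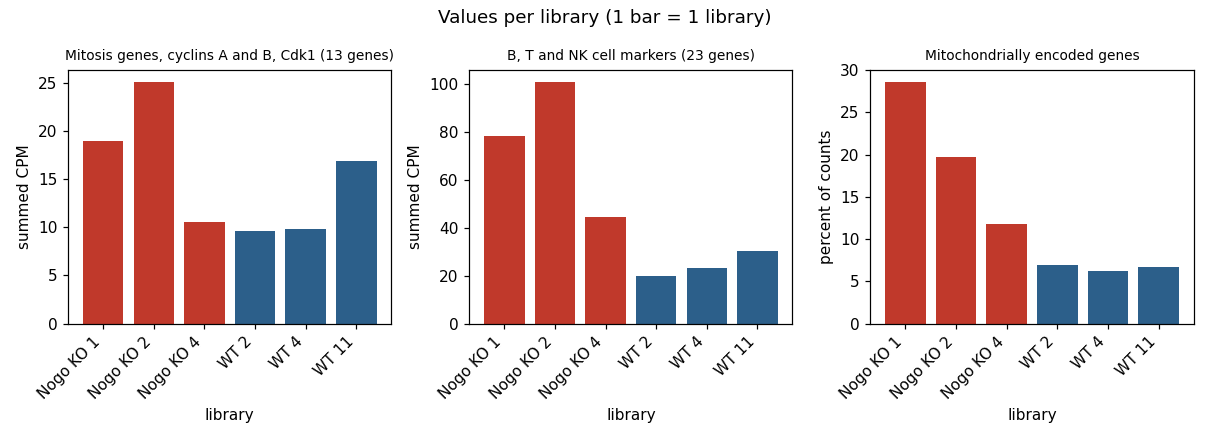
Summed level in CPM of the 13 mitosis genes with cyclins A and B and Cdk1, summed level of 23 B, T and NK cell markers, and percent of counts from mitochondrially encoded genes, with 1 bar for each library and Nogo-/- at the left. Nogo-/- 1 and 2 are the highest in each panel, and wild type 11 stands above Nogo-/- 4 in the first panel only.

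Wee1 encodes the kinase that holds CDK1 inactive. It held 8.28, 12.9 and 8.72 CPM in Nogo-/- 1, 2 and 4 and 19.3, 20.5 and 10.9 CPM in wild type 2, 4 and 11. Wild type 11 lay inside the knockout range, and the log2 fold change of −0.76 ± 0.27 (SE) missed the threshold (edgeR adjusted p = 0.0795). Without wild type 11 it passed at −1.0 (adjusted p = 0.0339), and it also passed with no filter on low counts (−0.82, adjusted p = 0.00624). Over all tested genes 12.3% and 13.9% passed in those fits. With DESeq2 (adjusted p = 0.0524) and limma-voom (adjusted p = 0.0985) Wee1 missed the threshold. Cdc25a, the phosphatase that removes the mark set by WEE1, was at 4.11 to 5.66 CPM in knockout and 2.97 to 5.03 CPM in wild type.

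In the p53 circuit 0 of 3 members passed by edgeR (2 at an unadjusted p under 0.05, 0 with DESeq2 or limma-voom). Among all tested genes 17.0% passed by edgeR and 34.0% had an unadjusted p under 0.05. Trp53 held 18.8, 15.7 and 23.3 CPM in Nogo-/- 1, 2 and 4 and 11.1, 12.5 and 14.2 CPM in wild type. The groups did not overlap, and the log2 fold change was 0.61 ± 0.20 (SE, edgeR adjusted p = 0.0615). Ccng1, a cyclin that p53 induces, held 17.8, 23.8 and 17.9 CPM in knockout and 25.8, 26.0 and 26.9 CPM in wild type (−0.40 ± 0.18, SE, adjusted p = 0.141). Mdm2, which encodes the ligase that degrades p53, averaged 22.5 ± 4.23 CPM in knockout and 20.9 ± 2.43 CPM in wild type (SD, n = 3 each). In the wider list of p53 targets and regulators, 3 of 30 tested genes rose and 1 fell, 13.3% against 17.0% of all tested genes (median log2 fold change 0.02). Bax, which opens mitochondria in apoptosis, rose at 46.0, 41.7 and 39.7 CPM in knockout and 19.5, 20.2 and 26.9 CPM in wild type (0.94 ± 0.18, SE, adjusted p = 0.0114). Gadd45a, a stress gene, and Rps27l rose (1.01 and 0.63), and Xpc, a DNA damage sensor, fell (−0.69). Gadd45a has 19.1% of its exonic bases under a gene on the other strand.

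**Figure D4:**
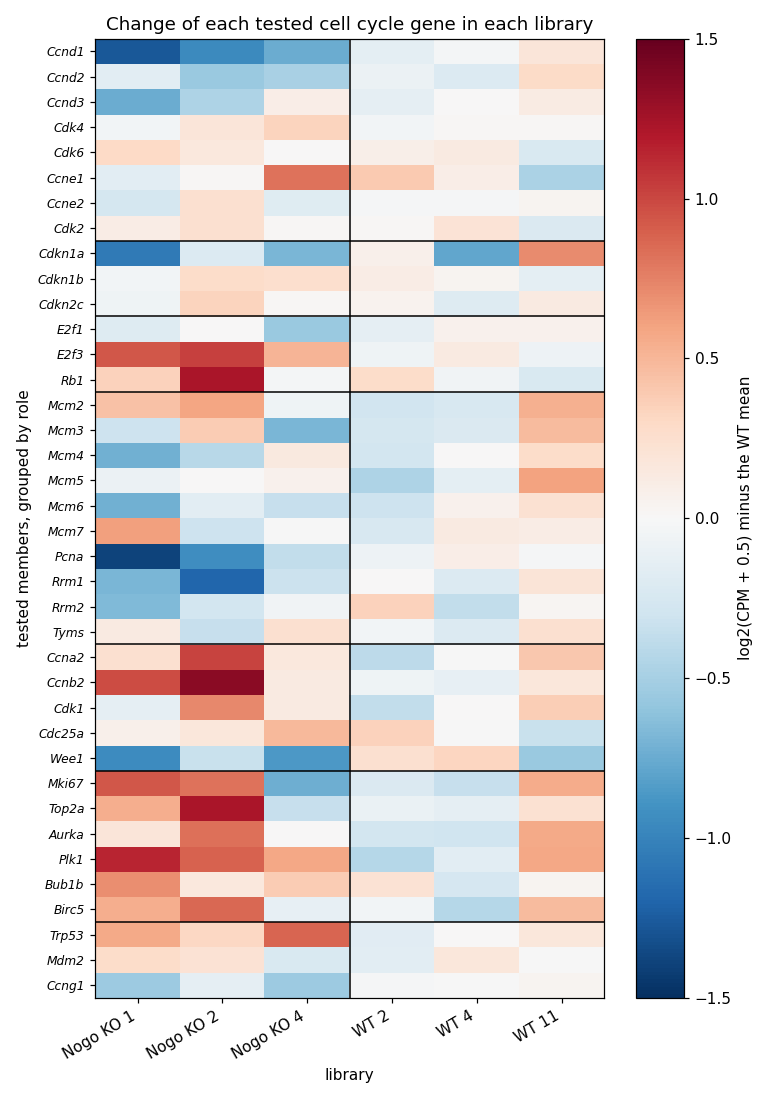
Change of each of the 38 tested members in each library, as log2(CPM + 0.5) minus the wild-type mean, with Nogo-/- 1, 2 and 4 at the left and wild type 2, 4 and 11 at the right; lines separate the role groups. Ccnd1 and Pcna are below the wild-type mean and E2f3 above it in all 3 knockout libraries, while Mki67 is above it in Nogo-/- 1 and 2 and below it in Nogo-/- 4.

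Levels can be compared between genes per length. Per kilobase of exonic length, Pcna stood first in wild type with 15.1 ± 0.98 CPM, followed by Cdk4 with 8.15 ± 0.21 and Ccng1 with 7.47 ± 0.17 (SD, n = 3). In knockout Cdk4 stood at 9.15 ± 1.17 CPM per kilobase and Pcna at 8.34 ± 3.01, which did not differ beyond their spread. At the other end, Mki67 was at 0.336 in knockout and 0.233 in wild type and Ccnb1 at 0.0422 in knockout and 0.0221 in wild type, all in CPM per kilobase. The order did not follow the phases throughout: the mitotic kinase gene Aurka, at 1.24 in knockout and 0.947 in wild type, lay above the G1 cyclin gene Ccnd2, at 0.429 in knockout and 0.587 in wild type, in CPM per kilobase.

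The wider machinery was read from 8 lists of 248 genes that are not members, of which 243 were in the table and 197 were tested. Of these, 13 rose and 13 fell, 13.2% against 17.0% of all tested genes, with a median log2 fold change of −0.01. With library totals in place of TMM, rises and falls numbered 2 and 3 in the list of other cyclins and CDKs, 2 and 4 in that of checkpoint and anaphase control, and 1 and 2 in that of p53 targets, so the surplus of rises in these 3 lists under TMM depends on the scaling. A fit with the mitochondrial share as a term called 0 genes of any of the 8 lists by edgeR, as it did over all genes, 1146 of which had an unadjusted p under 0.05. Under TMM the list of other cyclins and CDKs had 5 rises and 2 falls among 30 tested, 23.3% against 17.0% of all tested genes. Its rises were Ccnl1 and Ccnl2, the cyclin L genes, Ccnt2 and Cdk9, of the elongation factor P-TEFb, and Cdk10. Ccnl2 held 278, 139 and 103 CPM in Nogo-/- 1, 2 and 4 and 69.8, 59.4 and 50.6 CPM in wild type (1.53 ± 0.33, SE, edgeR adjusted p = 0.0138), in the same order over the knockout libraries as the mitochondrial share. Cdk9 averaged 47.1 ± 7.34 CPM in knockout and 29.6 ± 1.80 CPM in wild type (SD, n = 3 each). Mnat1, of the CDK-activating kinase, fell to 2.36 ± 0.78 CPM in knockout, against 5.68 ± 0.73 CPM in wild type (−1.27), and Ccny fell as well (−0.86).

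In the list of E2F, pocket protein and DREAM genes, 0 of 14 tested rose and 2 fell, 14.3% against 17.0% of all tested genes. Rbbp4, a histone-binding subunit of the DREAM complex and of chromatin assembly, held 22.9, 21.7 and 52.3 CPM in Nogo-/- 1, 2 and 4 and 95.8, 110 and 79.0 CPM in wild type (−1.56 ± 0.32, SE, edgeR adjusted p = 0.0125). Genes on the other strand cover 18% of the exonic bases of Rbbp4. Rbl2, which encodes the RB relative p130 of resting cells, fell (−0.82 ± 0.20), with 21% of its exonic bases under a gene on the other strand. In the cohesin and condensin list 1 of 18 rose and 2 fell, 16.7% against 17.0% of all tested genes: the cohesin ring genes Smc1a (20.3 ± 4.87 CPM in knockout and 40.2 ± 2.67 CPM in wild type) and Smc3 (7.90 ± 2.30 CPM in knockout and 17.3 ± 2.77 CPM in wild type, SD, n = 3 each) fell, and the cohesin loader Mau2 rose (0.79).

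Replication fork and nucleotide supply genes outside the members gave 1 rise and 4 falls among 30 tested, 16.7% against 17.0% of all tested genes. Shmt1, which feeds thymidylate synthesis, fell to 80.6 ± 22.9 CPM in knockout, against 159 ± 22.7 CPM in wild type, and Rfc1 of the clamp loader (−0.66) and Rpa1 of the single-strand binding complex (−0.61) fell with it. Chaf1a is among the 4 falls, at 2, 4 and 4 counts in Nogo-/- 1, 2 and 4 and 15, 13 and 18 counts in wild type 2, 4 and 11. It passed the filter through wild type alone, its knockout counts lie near the floor, and 52.5% of its exonic bases lie under a gene on the other strand, so its direction is not read as support. Dna2, a nuclease of lagging-strand synthesis, rose (0.80). Of the 17 tested genes of origin licensing and firing 0 were called by edgeR, 2 had an unadjusted p under 0.05 (Orc4 at 0.39 and Gins4 at −0.50), and 0 passed with DESeq2 or limma-voom.

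Among 21 tested spindle, kinetochore and cytokinesis genes 0 rose and Ckap5, a microtubule polymerase, fell (−0.77), a share of 4.76%. Checkpoint and anaphase control gave 3 rises and 1 fall among 38, 10.5% against 17.0% of all tested genes, and 4 rises and 3 falls with DESeq2. Cdc26, a subunit of the anaphase-promoting complex, fell to 9.18 ± 1.91 CPM in knockout, against 20.4 ± 1.99 CPM in wild type, while Anapc13, of the same complex, rose to 142 ± 29.9 CPM in knockout, against 77.5 ± 6.44 CPM in wild type (SD, n = 3 each). Fbxw7, which marks cyclin E for destruction, rose (1.05), as did the ligase subunit Rbx1 (0.65).

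**Figure D5:**
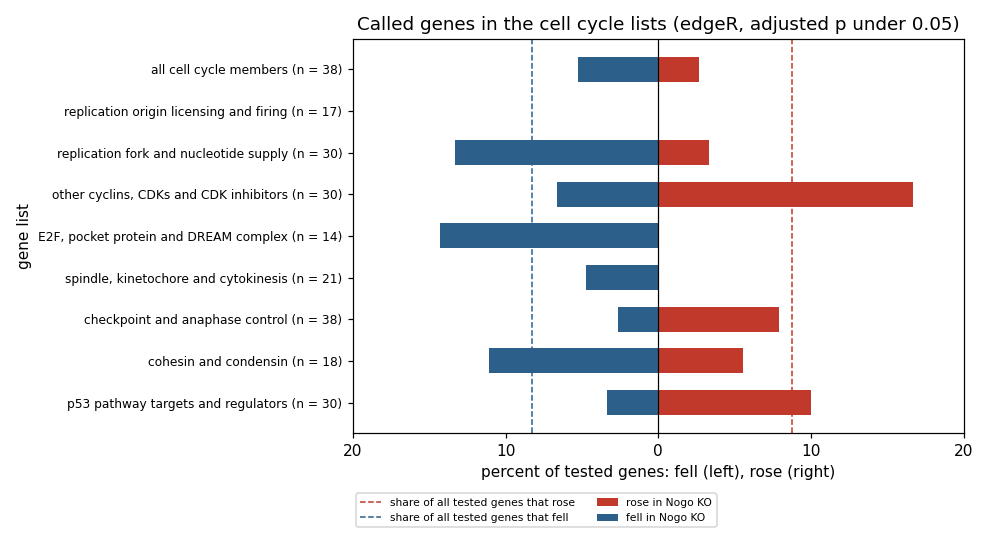
Percent of tested genes that fell (left of zero) or rose (right of zero) in Nogo-/- liver, for the 38 tested members and for each of 8 wider cell cycle lists, with the shares over all tested genes, 8.76% risen and 8.29% fallen, as dashed lines. The list of other cyclins and CDKs, which includes genes of the elongation factor P-TEFb, reaches furthest on the side of rises. The list of origin licensing has no bar.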

How the data were processed

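Per the labels' protocols, liver RNA was extracted with a Qiagen kit and libraries were made from mRNA with a SMARTer kit. The authors deposited whole-number read counts per gene, 1 column per library, without normalization. Reads were placed on mm10 (per the submitters' processing notes). Aligner, counter, annotation, use of strand and handling of multiply matching reads: not given in the sources used here. Genes with copies or with a partner on the other strand are therefore uncertain. GENCODE M21 held 54165 of the 54232 identifiers and supplied coordinates, exonic lengths and the share of 50-base words found in other genes' transcripts. No library repeated another within counting noise (chi-square over its degrees of freedom, 21 to 170.6 within a genotype), which does not show that they came from separate animals.

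Counts were tested in R 4.3.3 with edgeR 4.0.16: TMM, filterByExpr (cutoff 0.558 CPM in 3 libraries), the quasi-likelihood F test without covariates, adjusted over 13304 genes. The standard error is the absolute log2 fold change over the square root of F. DESeq2 1.42.0 and limma-voom (limma 3.58.1), other scalings and filters, a replicate block, and fits without 1 library were alternatives, and the main test was checked on simulated data. All 42 members are reported, some uncalled ones only within a range or as a fold change without levels. The called genes of each pathway list are given by smallest p (up to 4 in each direction, with Ccnt2 added after its value was seen to complete a count of 5, or 2 uncalled where none was called), with up to 3 of each marker list. The members and lists were chosen with earlier results of these data known. Markers of 9 cell types were read beside the members.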

Additional observations from a re-analysis of the deposited data

How the results depend on the processing

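E2f3, Pcna and Ccnd1 were the called members with DESeq2 size factors, DESeq2, limma-voom, a filter of 1 CPM in 3 libraries and mitochondrial genes removed. With no filter on low counts 5 members passed, Wee1 and Rrm1 being added. Library totals moved the median of all genes to −0.16 and gave 690 rises and 1566 falls, against 1165 and 1103 with TMM; Rrm1 passed there and E2f3 did not (0.73, adjusted p = 0.0737). A fit with the mitochondrial share as a term called 0 genes by edgeR, 1146 being at an unadjusted p under 0.05, and 0 members, 1 unadjusted; DESeq2 and limma-voom were not run this way. With Nogo-/- 4 alone, a fit added after the data were seen in which only wild type supplies the spread, 25 genes and 0 members were called (2649 and 4 unadjusted). Leaving out 1 library gave 630 to 4046 called genes and 0 to 7 called members. Members were 0 without Nogo-/- 1 or wild type 4, 1 without Nogo-/- 2 or wild type 2, 3 without wild type 11 and 7 without Nogo-/- 4.

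The labels share the numbers 2 and 4 between genotypes and state no pairing; deviations of same-numbered libraries correlated at −0.06 and 0.067 over 13304 genes. The replicate block called 1686 genes and 2 members, Plk1 and Wee1, and not Ccnd1 (adjusted p = 0.0825), Pcna (0.0811) or E2f3 (0.106). In that fit Nogo-/- 1 and wild type 11 each stood alone in a block. They added nothing to the genotype difference, which rested on the libraries numbered 2 and 4 alone.

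Some uncalled members changed sign, and the cause was not tested. With library totals these were Cdk4 (−0.00071), Cdk6 (−0.03), Cdk2 (−0.05), Cdkn1b (−0.0027), Cdkn2c (−0.05), Mcm7 (−0.06), Tyms (−0.16) and Mdm2 (−0.07); with limma-voom Mcm5 (0.02); with no filter Tyms (−0.03). With the mitochondrial covariate they were Ccnd3 (0.30), Cdk6 (−0.09), Ccne2 (0.03), Mcm2 (−0.12), Mcm4 (0.46), Mcm5 (0.06), Mcm7 (−0.42), Rrm2 (0.12), Mki67 (−1.13), Top2a (−0.06), Birc5 (−0.11) and Mdm2 (−0.31). With the replicate block they were Cdk6 (−0.03), Ccne2 (0.06), Mcm3 (0.12), Mcm4 (0.00025), Mcm5 (0.48), Mcm7 (−0.11) and Mdm2 (−0.01). With Nogo-/- 4 alone they were Ccnd3 (0.10), Cdk6 (−0.01), Rb1 (−0.05), Mcm2 (−0.15), Mcm4 (0.16), Mcm7 (−0.02), Mki67 (−1.03), Top2a (−0.49), Aurka (−0.07), Birc5 (−0.27) and Mdm2 (−0.24). Over the 6 fits without 1 library, members that changed sign ranged as follows: Ccne1 −0.14 to 0.55, Ccne2 −0.28 to 0.05, Cdk1 −0.03 to 0.61, Cdkn2c −0.03 to 0.18, Mcm3 −0.64 to 0.12, Mcm5 −0.39 to 0.41, Mcm7 −0.18 to 0.34, Mdm2 −1.2e-05 to 0.24 and Tyms −0.11 to 0.20. Depth limits the 9 members under 1 CPM in wild type.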

Other observations

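Marker genes of the cell types in a piece of liver were read beside the cell cycle genes. Over all tested genes 17.0% were called by edgeR, 8.76% rising and 8.29% falling. B cell markers rose in 6 of 9 tested and fell in 0, and T and NK cell markers rose in 4 of 7 tested and fell in 0. Of those that rose, 2 B cell markers and 3 T and NK cell markers, Ccl5 among them, did not reach the filter cutoff in every wild-type library. They entered the test with the help of knockout libraries. All 3 tested neutrophil markers, S100a8, S100a9 and Csf3r, rose, and the 11 genes of that list summed to 16.0, 17.8 and 7.40 CPM in Nogo-/- 1, 2 and 4 and 2.75, 3.04 and 3.95 CPM in wild type. Reads were few: over the whole list, wild type 2, 4 and 11 had 58, 57 and 85, and Nogo-/- 1, 2 and 4 had 241, 331 and 123. The rest of the list failed the filter. Whether the 3 tested genes reached its cutoff in every wild-type library, or entered with help from knockout, was not tested. Markers of the liver sinusoidal endothelium fell in 4 of 9 and rose in 0, among them Lyve1 (−1.68), Oit3 (−1.45) and Kdr (−0.92), on the log2 scale by edgeR.

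Of 9 Kupffer cell markers only Folr2 fell, at 1, 5 and 9 counts in Nogo-/- 1, 2 and 4 and 75, 34 and 99 counts in wild type 2, 4 and 11. It passed the filter through wild type alone, and 63.1% of its exonic bases lie under a gene on the other strand. Of 6 cholangiocyte markers only Epcam fell (−1.30). Among 9 erythroid markers Hba-a2 rose (1.56) and Alas2 fell (−1.05), and among 10 hepatocyte markers Cps1 fell (−1.52). Stellate cell and fibroblast markers had 0 calls of 8 by edgeR, 2 at an unadjusted p under 0.05, 1 with DESeq2 and 0 with limma-voom. The hemoglobin genes share most of their sequence, 89.3% of the words of Hba-a2, so their single levels are uncertain.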
